A study of Mus musculus with 6 samples.

Results

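DNA replication genes were measured by RNA-seq in the whole spinal cord of E13.5 mouse embryos. The set holds 35 genes that act in S phase, taken by symbol from the deposited counts of 55433 genes per library. All 35 were found and passed the filter on low counts, which left 17711 tested genes. The study's question is the role of NFIA, a transcription factor, in mouse motor neuron development. It compares 3 embryos labelled control, of genotype NFIA-ff, with 3 labelled NFIAcKO, which carry NFIA-ff and Nestin-cre. All 6 are of strain C57BL/6J per the labels. Nestin-cre expresses cre recombinase in neural progenitors, so dividing progenitors and the neurons and glia born from them are the targeted cells. Only the embryos labelled NFIAcKO carry cre, and no group has cre without NFIA-ff, so the effects of cre and of the deletion cannot be told apart. Each library is labelled as a separate embryo, with no litter given.

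Each library held between 43393053 and 51465763 counts on genes. Nfia was not lower in the libraries labelled NFIAcKO. It stood at 60.1, 59.1 and 79.2 CPM (counts scaled by library size and TMM factor) in control replicates 1 to 3 and at 106, 108 and 119 CPM in NFIAcKO replicates 1 to 3. The log2 fold change was 0.75 (edgeR adjusted p = 0.00310). Exons outside the floxed part can still add to this count, so the deletion is not tested by it. The count rose rather than fell, and whether the labels are right was not tested. Every direction below is that of the labels. All 5 listed cord markers (Hoxc6, Hoxc8, Hoxc9, Olig2 and Isl1) were present in every library. Their sums did not overlap, at 565 to 652 CPM in the controls and 657 to 812 CPM in the libraries labelled NFIAcKO. Taken singly, 4 of the 5 overlapped between the groups, and Olig2 lay below 0 (log2 fold change -0.15). The groups did not overlap for 33.4% of all tested genes. Of the 5, Hoxc8 rose (0.39, adjusted p = 0.0190), as did 7.86% of all tested genes. Hoxc6 was lowest in control replicate 3 (130.1, 146 and 79.6 CPM in control replicates 1 to 3, 121, 188 and 138 CPM in NFIAcKO replicates 1 to 3). The part of these differences in the replication genes was not tested.

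Before S phase, the origin recognition complex, Cdc6 and Cdt1 load the ring of Mcm2 to Mcm7 onto DNA. Cyclin E and its kinase help start the phase, and Cdc45 and the GINS complex join the ring to form the active helicase. Polymerase alpha with primase lays primers, polymerases delta and epsilon extend them, and PCNA, a clamp loaded by replication factor C (RFC), holds the polymerases on DNA. Ribonucleotide reductase and thymidylate synthase supply nucleotides. Transcription of many of these genes is driven by E2F factors as cells enter the cycle. In the embryonic cord such cells are mainly progenitors of the ventricular zone, whereas neurons have left the cycle. In whole tissue, a change in the number of cycling cells and a change in RNA per cell cannot be told apart.

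Few replication genes passed the test between the groups. Of 35 members, 1 rose and 1 fell at an adjusted p under 0.05 in the libraries labelled NFIAcKO, while over all tested genes 7.86% rose and 6.08% fell (13.9% in all, edgeR quasi-likelihood test). Of all calls 56.4% were higher, and 42.4% under upper quartile scaling, in which 0 members rose and 2 fell. The gene that rose was Rfc1, the large subunit of RFC, and the gene that fell was Rfc4, a small subunit of the same complex. Fold changes were small, with 20 members above 0, 15 below, a range of -0.40 to 0.53 and a median of 0.06 on the log2 scale, against -0.0083 for all tested genes. An unadjusted p under 0.05 was reached by 9 members (25.7%, against 29.8% of all tested genes). The groups did not overlap for 7 of 35 members, against 33.4% of all tested genes. Of these, Rfc1 and Cdc6 were higher in all 3 libraries labelled NFIAcKO (17.3% of all tested genes were) and Gins2, Gins4, Rfc3, Rfc4 and Ccne2 lower (16.1% of all tested genes).

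**Figure D1:**
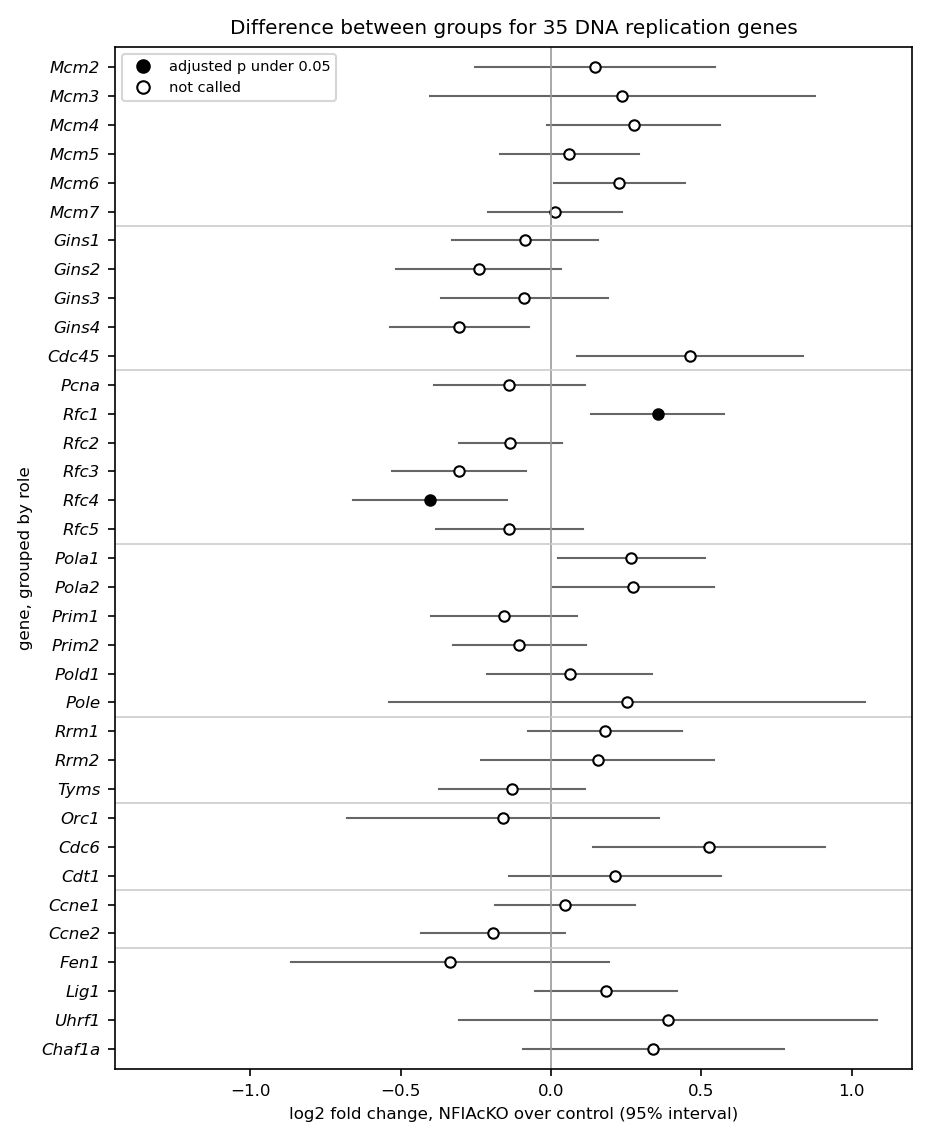
Log2 fold change of libraries labelled NFIAcKO over control for 35 DNA replication genes, with 3 libraries per group. Points are edgeR estimates, lines their 95% intervals, and filled points have an adjusted p under 0.05. Rfc1 lies at 0.35 and Rfc4 at -0.40, and most intervals of the other genes span 0.

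Promoters were read from RefSeq on GRCm38.p6, which had an entry for 27 of 35 members. The window was the 250 bases before each start, searched on both strands for the E2F letters TTTGGCGC, TTTCGCGC, TTTCCCGC and TTTGCCGC. A match was found for 9 of 27 members (33.3%): Mcm5, Mcm6, Mcm7, Gins3, Rfc3, Pola1, Orc1, Cdc6 and Uhrf1. The share was 21.1% of 57 other replication genes, 3.42% of other tested genes with an entry and 2.16% of all genes with one. The letters CCAAT, bound by NF-Y, were found for 63.0% of members and 37.5% of all genes. The full palindrome bound by NFI proteins (TTGGC, 5 bases of any kind, then GCCAA) was found for no member and for 0.0444% of all genes. The 9 members with an E2F match had log2 fold changes of -0.31 to 0.53, with a median of 0.06 and no call. The 18 with an entry and no match had a median of 0.15 and both calls, and 13.9% of all tested genes were called. A match is a run of letters and was not tested as a site.

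Promoter stretches are shown for 4 members that differ in these letters and in their values, 5′ to 3′ on the strand of the gene, with E2F letters in capitals. That of Mcm6 (chr1:128359706-128359855, minus strand) has a run of 12 capitals in which 2 matches on opposite strands share 4 letters, and 1 more match nearer the start. That of Pola1 (chrX:93632156-93632305, minus strand) has 1 match. That of Mcm3 (chr1:20820313-20820462, minus strand), the ring gene with the widest interval, has no E2F match and 3 of CCAAT. That of Rfc1 (chr5:65335671-65335789, minus strand, without the bases that lie in an annotated exon), the member that rose, has neither, though a CCAAT lies farther out in its 250-base window, at -166 from the start.
Mcm6: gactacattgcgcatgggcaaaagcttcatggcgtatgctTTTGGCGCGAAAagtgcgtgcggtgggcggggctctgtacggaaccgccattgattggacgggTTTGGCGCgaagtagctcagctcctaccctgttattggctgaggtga
Pola1: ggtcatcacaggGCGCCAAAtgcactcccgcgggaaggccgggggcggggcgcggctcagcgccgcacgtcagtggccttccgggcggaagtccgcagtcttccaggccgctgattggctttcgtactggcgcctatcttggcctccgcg
Mcm3: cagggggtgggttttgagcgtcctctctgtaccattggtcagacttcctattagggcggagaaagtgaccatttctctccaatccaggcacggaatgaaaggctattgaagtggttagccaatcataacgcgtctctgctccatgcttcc
Rfc1: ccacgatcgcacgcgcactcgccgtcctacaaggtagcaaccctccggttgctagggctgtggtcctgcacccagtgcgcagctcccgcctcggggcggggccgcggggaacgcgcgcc

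The clamp and its loader held both calls. Rfc1 stood at 34.6, 32.8 and 43.8 CPM in control replicates 1 to 3 and at 46.8, 47.3 and 48.2 CPM in NFIAcKO replicates 1 to 3. All 3 libraries labelled NFIAcKO lay above the controls and close together, while control replicate 3 lay well above the other two. The change was 1.28-fold, or 0.35 on the log2 scale with an SE of 0.10 (adjusted p = 0.0347). Rfc1 lies on the minus strand of chromosome 5 of GRCm38 from 65261850 to 65335670, with 6021 bp of annotated exons and no exonic overlap with another gene. Rfc4 gave 12.3, 14.7 and 12.8 CPM in the controls and 9.17, 10.6 and 10.4 CPM in the libraries labelled NFIAcKO. Each library labelled NFIAcKO was below each control, and the log2 fold change was -0.40 (SE 0.12, adjusted p = 0.0379). Rfc4 lies on the minus strand of chromosome 16 from 23113943 to 23127737, with 1533 bp of exons, of which 12.7% overlap Eif4a2 on the other strand.

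When libraries were left out one at a time, both calls held without control replicate 3 and ended without any of the other 5. Rfc1 then had an adjusted p of 0.000195, and 0.0967 to 0.155 otherwise. For Rfc4 the values were 0.0124 and 0.0795 to 0.178. Long transcripts were counted relatively higher in the libraries labelled NFIAcKO than in the controls, with slopes of log2 CPM per doubling of exonic length of -0.0188 to -0.117 in the controls and 0.0396 to 0.0931 in the libraries labelled NFIAcKO. With a trend on length and GC content removed, Rfc1 differed by 0.30 (adjusted p = 0.0639) and Rfc4 by -0.10 (adjusted p = 0.608), so both calls ended and the Rfc4 value shrank. No member was called by edgeR in that fit (6 had an unadjusted p under 0.05), while 7.69% of all tested genes were (3.82% rose and 3.87% fell). With the trend removed and the replicate number as a block, Rfc1 passed (0.31, adjusted p = 0.0397) and Rfc4 did not (-0.10, adjusted p = 0.603). Under upper quartile scaling Rfc1 missed the threshold (adjusted p = 0.0564).

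The other loader subunits gave no call in edgeR as fitted here. Rfc3 was 35.7, 40.8 and 30.9 CPM in the controls and 27.8, 29.1 and 30.0 CPM in the libraries labelled NFIAcKO, lower in all 3 of the latter (log2 fold change -0.31, adjusted p = 0.0636). It passed in 6 of 16 other settings, among them DESeq2 (adjusted p = 0.0331) and upper quartile scaling (0.0467), and had 0.192 with the trend removed. For Rfc2 the log2 difference was -0.14 (adjusted p = 0.281) and for Rfc5 -0.14 (adjusted p = 0.455). Pcna, the clamp itself, was 60.7, 67.9 and 81.1 CPM in the controls and 54.1, 71.5 and 64.8 CPM in the libraries labelled NFIAcKO. Its groups overlapped, with an interval of -0.39 to 0.11 on the log2 scale for the difference (adjusted p = 0.465).

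**Figure D2:**
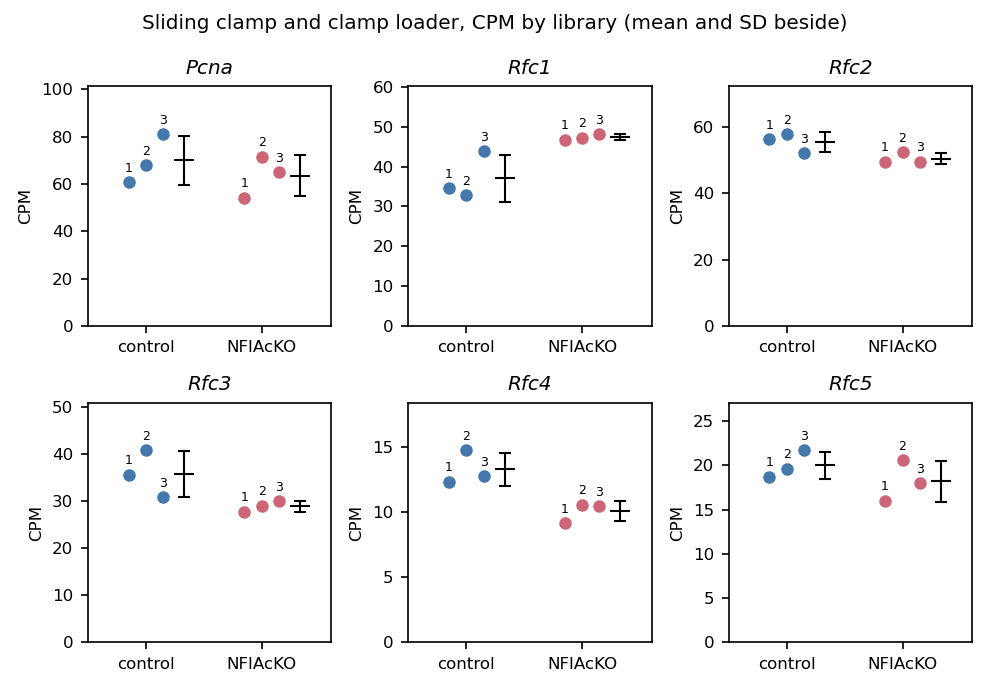
CPM of Pcna and Rfc1 to Rfc5 in each library, numbered by replicate, with the mean and SD of 3 libraries beside each group. The libraries labelled NFIAcKO lie above every control for Rfc1 (46.8 to 48.2 CPM) and below every control for Rfc3 and Rfc4.

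The 6 subunits of the MCM ring all had fold changes above 0, from 0.01 for Mcm7 to 0.28 for Mcm4 on the log2 scale, with Mcm7 at -0.03 under upper quartile scaling, and none passed the test (1 had an unadjusted p under 0.05). Mcm6 had the smallest p of the ring. It stood at 64.7, 61.6 and 82.6 CPM in control replicates 1 to 3 and 82.0, 85.3 and 77.0 CPM in NFIAcKO replicates 1 to 3, and its log2 difference was 0.23 with an SE of 0.10 (adjusted p = 0.151). Control replicate 3 lay among the libraries labelled NFIAcKO, and the other controls below them. Mcm4 had the same order, with 42.3, 37.6 and 57.8 CPM and 53.6, 59.7 and 53.3 CPM (adjusted p = 0.187). Mcm3 had the widest interval of the ring, at 24.1, 22.5 and 41.4 CPM in the controls and 32.2, 41.4 and 30.1 CPM in the libraries labelled NFIAcKO. Its interval of -0.40 to 0.88 on the log2 scale spans both directions (adjusted p = 0.609). Mcm2, Mcm5 and Mcm7 had intervals of -0.25 to 0.54, -0.17 to 0.29 and -0.21 to 0.24. Mcm7 hosts Mir25 and Mir93 and shares 12.6% of its exonic bases with these and with Cops6 and Ap4m1.

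The partners that turn the ring into a helicase had no call, and 2 of the 5 had an unadjusted p under 0.05. Cdc45 gave 5.53, 4.56 and 6.78 CPM in the controls and 7.44, 9.46 and 6.33 CPM in the libraries labelled NFIAcKO, with a log2 difference of 0.46 and an SE of 0.18 (adjusted p = 0.0925). Control replicate 3 overlapped the lowest library labelled NFIAcKO. All 4 GINS subunits were below 0, though with the length and GC trend removed Gins1 was at 0.15 and Gins3 at 0.03. Gins4 had the smallest p among these partners, at 29.2, 37.5 and 28.9 CPM against 25.5, 26.5 and 25.4 CPM with control replicate 2 highest (log2 fold change -0.30, adjusted p = 0.0730). With the length and GC trend removed the Gins4 value was -0.06 (adjusted p = 0.715). Gins2 differed by -0.24, and Gins1 and Gins3 by -0.09 and -0.09. Of the exonic bases of Gins2, 67.3% overlap Gse1 on the other strand, so its count is uncertain.

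Polymerase and primase subunits had no call, and 2 of the 6 had an unadjusted p under 0.05. Pola1 and Pola2, the catalytic and accessory subunits of polymerase alpha, were above 0, and the primase subunits Prim1 and Prim2, which bind them, below. Pola1 had the smallest p, at 15.6, 15.6 and 18.6 CPM in the controls and 19.2, 22.1 and 18.6 CPM in the libraries labelled NFIAcKO, with control replicate 3 level with the lower of these (log2 fold change 0.27, SE 0.11, adjusted p = 0.131). Pola2 averaged 17.6 ± 2.68 CPM against 21.3 ± 2.49 CPM (SD, n = 3, edgeR adjusted p = 0.157). For Prim1 the log2 difference was -0.16 (adjusted p = 0.387) and for Prim2 -0.11 (adjusted p = 0.540). Pold1, the catalytic subunit of polymerase delta, differed by 0.06 (adjusted p = 0.795). Pole, that of polymerase epsilon, was 9.61, 9.36 and 19.3 CPM in the controls, with replicate 3 highest, and reached 11.9, 15.6 and 18.1 CPM in the libraries labelled NFIAcKO (interval -0.54 to 1.04).

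Genes of nucleotide supply gave no call, and none had an unadjusted p under 0.05. Rrm1, the large subunit of ribonucleotide reductase, had the smallest p, at 94.3, 92.8 and 124 CPM in the controls and 108, 135 and 109.8 CPM in the libraries labelled NFIAcKO (log2 fold change 0.18, adjusted p = 0.342). Rrm2, the small subunit made in S phase, was 39.6, 42.0 and 59.9 CPM against 46.7, 63.1 and 47.7 CPM. In both genes NFIAcKO replicate 2 was the highest library and control replicate 3 the next. Tyms, thymidylate synthase, differed by -0.13 (adjusted p = 0.487).

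Of the licensing genes, Cdc6 had the largest fold change of the 35. It stood at 4.76, 3.70 and 6.41 CPM in control replicates 1 to 3 and 6.57, 7.82 and 6.99 CPM in NFIAcKO replicates 1 to 3. The groups did not overlap, though control replicate 3 came close, and the difference of 0.53 on the log2 scale (SE 0.18) missed the threshold (adjusted p = 0.0648). DESeq2, in which 2 members rose and 3 fell, called Cdc6 (adjusted p = 0.0302). Cdt1, the partner of Cdc6 in loading the ring, differed by 0.21 (adjusted p = 0.425), and Orc1, at 1.28 to 2.22 CPM, by -0.16 (adjusted p = 0.709). Ccne1 and Ccne2, the E cyclins, differed by 0.05 and -0.19. Ccne2 was lower in all 3 libraries labelled NFIAcKO, at 11.8, 12.5 and 12.4 CPM against 13.1, 15.4 and 13.3 CPM in the controls (adjusted p = 0.269), and at 0.02 with the trend removed.

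The genes that finish and package new DNA gave no call either. Lig1, the ligase of Okazaki fragments, differed by 0.18 (adjusted p = 0.291). Chaf1a, the large subunit of the histone chaperone CAF-1, was 14.5, 11.8 and 22.2 CPM in the controls and 19.3, 22.5 and 19.5 CPM in the libraries labelled NFIAcKO (log2 fold change 0.34, SE 0.20, adjusted p = 0.282). Uhrf1, which brings Dnmt1 to newly made DNA, was 25.0, 22.6 and 42.9 CPM against 36.0, 47.6 and 34.8 CPM (interval -0.30 to 1.08). In both, control replicate 3 lay inside the range of the libraries labelled NFIAcKO and the other controls below it. Fen1, the flap endonuclease, was counted at only 0.932 to 1.73 CPM. Of its exonic bases 84.2% overlap Gm10143 or Tmem258 on the other strand, and 52.5% of those of Chaf1a overlap Ubxn6, so both counts are uncertain. In all, 12 of 35 members share exonic bases with another annotated gene.

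In each group 1 embryo was most often the highest. Control replicate 3 was the highest of the controls for 23 of 35 members (65.7%), against 37.9% of all tested genes. NFIAcKO replicate 2 was the highest of its group for 29 of 35 members (82.9%), against 39.9% of all tested genes. The other 12 members were highest in control replicate 2 among the controls, and the lowest place was shared, by control replicates 1 and 2 (16 and 14 members) and by NFIAcKO replicates 1 and 3 (17 each). Summed over the 35 genes, the level was 949, 973 and 1202 CPM in control replicates 1 to 3 and 1037, 1221 and 1051 CPM in NFIAcKO replicates 1 to 3. The median SD of log2(CPM + 1) was 0.20 in the controls and 0.13 in the libraries labelled NFIAcKO. The SD was larger in the controls for 27 of 35 members, and the share over all tested genes was not counted. Over all genes with at least 20 counts in a pair, chi-square per degree of freedom was 17.7, 19.2 and 50.2 between controls. Between libraries labelled NFIAcKO it was 11.9, 12.8 and 19.6. Uhrf1, Mcm3, Pole and Chaf1a were well above the other controls in control replicate 3, while Gins3 (5.84 to 6.57 CPM) and Ccne1 (10.9 to 12.1 CPM) hardly varied.

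**Figure D3:**
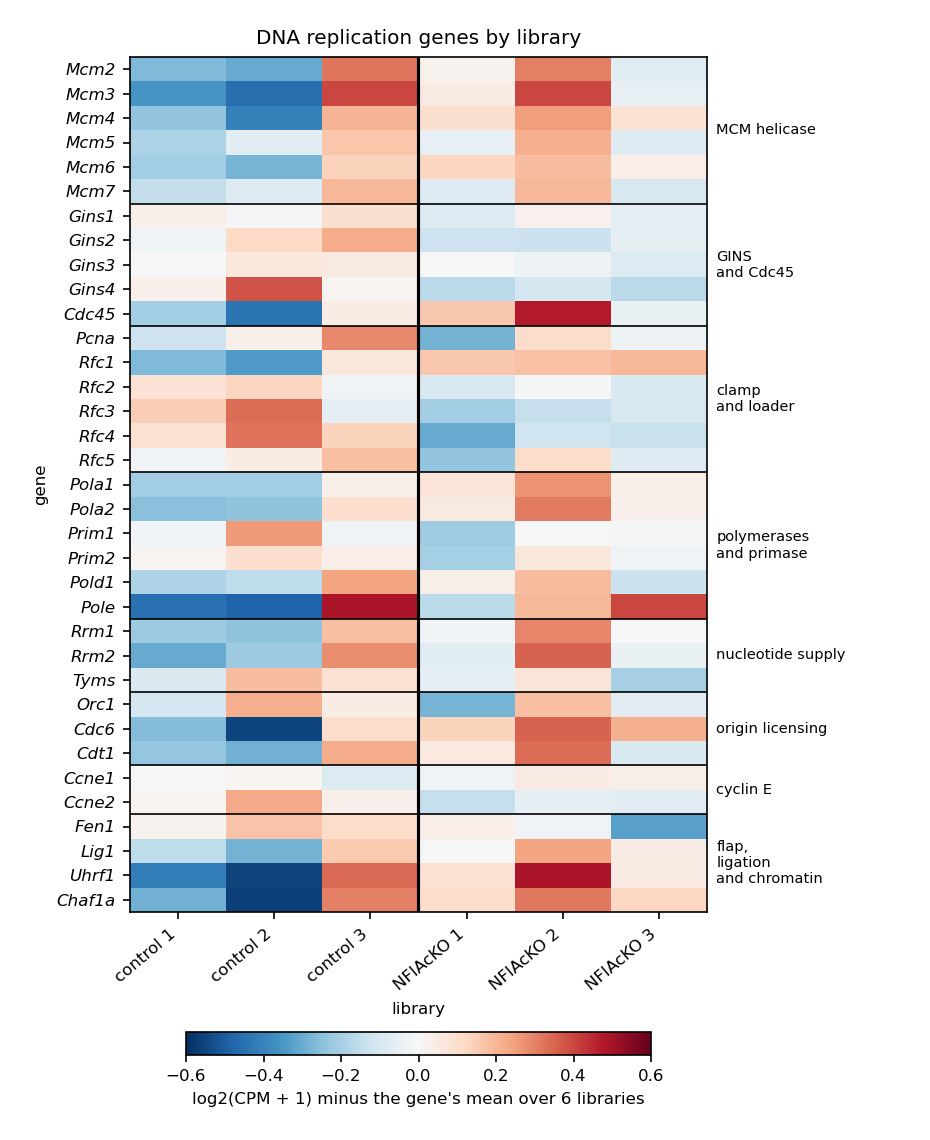
Each cell is log2(CPM + 1) of a gene in a library minus that gene's mean over all 6 libraries, with genes in rows by role. Control replicate 3 and NFIAcKO replicate 2 are the columns with most genes above their mean (31 and 27 of 35), and control replicate 1 has the fewest (9).

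All 10 listed proliferation markers were highest in control replicate 3 among the controls and in NFIAcKO replicate 2 among the libraries labelled NFIAcKO. Top2a, a topoisomerase of dividing cells, was 91.4, 86.2 and 146 CPM and 121, 168 and 125 CPM, and Ccnd1, cyclin D1, 55.4, 53.8 and 92.2 CPM and 71.3, 107 and 71.7 CPM. Between the groups, 1 of these 10 rose, against 7.86% of all tested genes. It was Mki67, the Ki-67 antigen, at 38.1, 35.5 and 59.4 CPM in control replicates 1 to 3 and 74.0, 86.9 and 85.7 CPM in NFIAcKO replicates 1 to 3 (log2 fold change 0.89, SE 0.19, adjusted p = 0.0225; 0.72 and 0.0659 with the trend removed). Their summed level was 294 to 457 CPM in the controls and 398 to 528 CPM in the libraries labelled NFIAcKO.

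Markers of cell types were compared in the same libraries. Over all tested genes 7.86% rose and 6.08% fell, and 3.82% and 3.87% with the length and GC trend removed. Of 10 progenitor and radial glial markers 1 (Nes) rose and 3 (Hes5, Fabp7 and Slc1a3) fell, with sums of 2892 to 3060 and 2714 to 3000 CPM. With the trend removed, Slc1a3 alone of these 10 was called (-0.52, edgeR adjusted p = 0.0243). The progenitor factor Sox2 was 123, 119 and 161 CPM in the controls and 131, 167 and 139.9 CPM in the libraries labelled NFIAcKO. Within their groups, control replicate 3 and NFIAcKO replicate 2 were highest for Sox2, Sox9, Nes, Vim and Prom1. Among the controls, Pax6, Hes1, Hes5, Fabp7 and Slc1a3 were instead highest in control replicate 2. Of 8 neuronal markers 3 rose and none fell, and their sums were 8415 to 8733 and 9474 to 9937 CPM. With the trend removed 4 of them rose and 0 fell. The 5 erythroid markers summed to 425 to 464 CPM in the controls and 278 to 522 CPM in the libraries labelled NFIAcKO, lowest in NFIAcKO replicate 2, and 1 of them rose. The 5 meningeal markers, with no call, summed to 1256 to 1618 and 1458 to 2012 CPM. Of 5 endothelial markers 3 rose and 1 fell (244.8 to 290.6 and 310.0 to 332.4 CPM), and with the trend removed 2 rose and 0 fell. The 5 microglial markers (59.7 to 69.5 and 51.1 to 57.3 CPM) and the muscle markers (2.96 to 4.65 and 2.83 to 3.98 CPM) gave no call. The part of these cells in the replication genes was not tested.

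**Figure D4:**
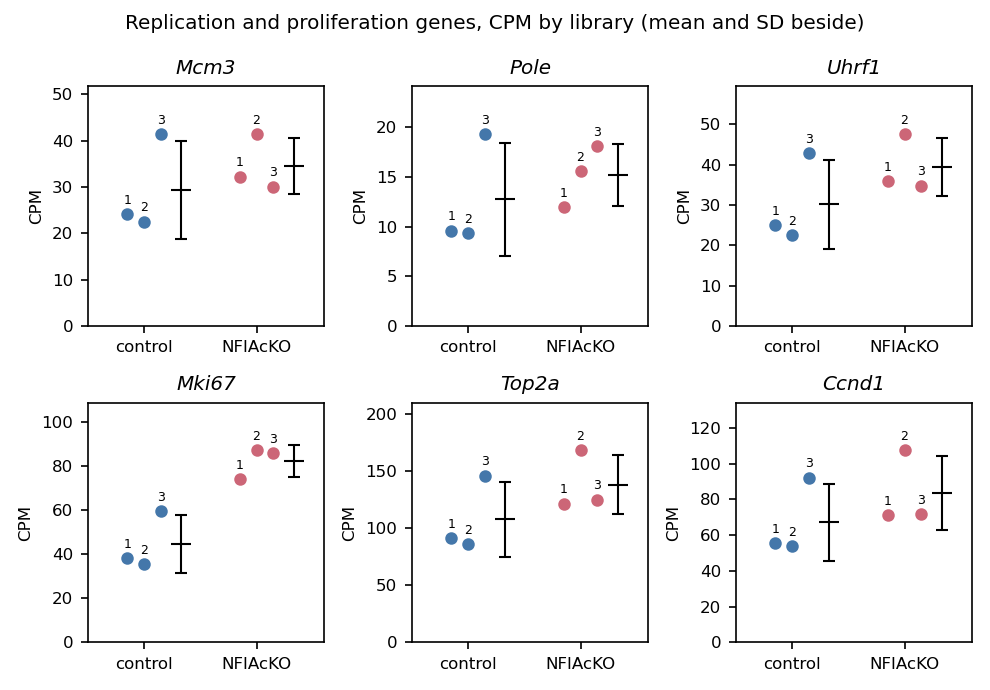
CPM of 3 replication genes (top) and 3 proliferation markers (bottom) in each library, numbered by replicate, with the mean and SD of 3 libraries beside each group. Control replicate 3 lies above the other controls in all 6 panels. Mki67 alone of the 6 has no overlap between groups, as is so for 33.4% of all tested genes.

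Without control replicate 3, 16 of 35 members rose and 3 fell, while 28.4% of all tested genes were called in that fit (2703 rose and 2466 fell of 18204). The 3 that fell were Gins4, Rfc3 and Rfc4. The 16 that rose included 4 of 6 MCM genes, both polymerase alpha subunits, both ribonucleotide reductase subunits and Cdc45. Uhrf1 then stood at a log2 fold change of 0.73 (adjusted p = 0.000262), Cdc6 at 0.75 (0.00153), Pole at 0.68 (0.00212), Chaf1a at 0.64 (0.000446) and Mcm3 at 0.56 (0.00118). In each of these genes control replicate 3 was the highest control, so leaving it out raises the fold change by construction. In each of the other 5 fits that leave out a library no member was called by edgeR, and 3 to 8 members had an unadjusted p under 0.05. Those fits called 2.48% to 6.16% of all tested genes. The median over members was -0.02 without control replicate 1 and also -0.02 without NFIAcKO replicate 2, against 0.16 without control replicate 3. No library was left out of the main values, and nothing in the labels sets control replicate 3 apart. The number in its file name is shared with NFIAcKO replicate 3.

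**Figure D5:**
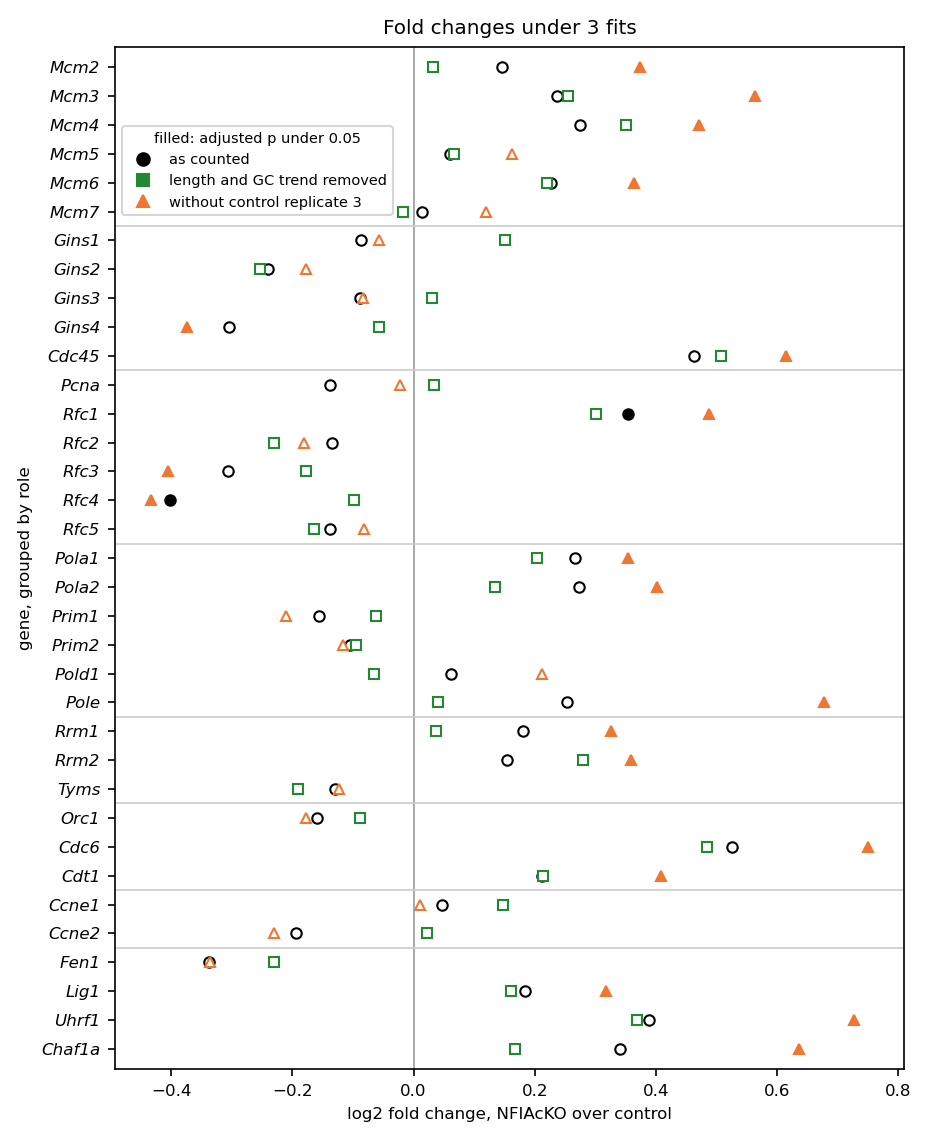
Log2 fold change of each member, libraries labelled NFIAcKO over control, as counted (circles), with the length and GC trend removed (squares) and without control replicate 3 (triangles). Filled symbols have an adjusted p under 0.05: 2 circles, no square and 19 triangles.

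Fold changes among the members also went with transcript length. The 12 members with the shortest exonic length (1349 to 3506 bp) had a median log2 fold change of -0.11, the 11 in the middle 0.06, and the 12 longest (4859 to 11160 bp) 0.22. All tested genes in these length ranges had medians of -0.12, -0.02 and 0.09. With the trend removed the medians of the members were 0.03, 0.07 and 0.04, and no member was called. Of the 6 MCM fold changes, 5 were then above 0 and Mcm7 was at -0.02. Cdc45 (0.51, adjusted p = 0.0907) and Cdc6 (0.48, adjusted p = 0.0974) kept their size without passing.

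Subunits of 1 complex differed widely in level per transcript length. Levels here are CPM per kb of the longest principal transcript in GENCODE M21, as mean ± SD over 3 controls. Pcna was the highest member at 46.0 ± 6.81. Within the ring, Mcm7 (29.1 ± 3.78) and Mcm6 (23.9 ± 3.89) came first, then Mcm2 (16.6 ± 4.32), Mcm4 (12.8 ± 2.95), Mcm5 (12.1 ± 1.56) and Mcm3 (9.68 ± 3.46). Across embryos, neighbours in that order lay within their spread, except for the step from Mcm6 to Mcm2, where the controls overlapped little. Within each control the order held, except that Mcm5 stood above Mcm4 in control replicate 2 (11.7 and 10.5). Mcm5 and Mcm3 were close in control replicate 3 (13.8 and 13.7). On the length of all annotated exons Mcm2 moved to the end of the ring. Of the GINS genes, Gins4 led at 23.6 ± 3.59, above Gins1 (9.47 ± 0.392), Gins3 (2.56 ± 0.0760) and Gins2 (2.09 ± 0.200), whose count is uncertain. Rfc3 led the loader at 27.2 ± 3.76 and Rfc5 was lowest at 7.16 ± 0.540. On the length of all exons Rfc3 was 8.97 and Rfc2 8.39 CPM per kb over 6 libraries, so Rfc3 still came first but by much less. Rrm1 and Rrm2, which form 1 enzyme, were 26.0 ± 4.45 and 21.5 ± 5.06. On the length of all exons Rrm1 was 10.1 and Rrm2 18.0 CPM per kb over 6 libraries, so their order reversed. Orc1 was the lowest at 0.624 ± 0.108, next to Fen1 at 0.674 ± 0.0573.

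Other genes of replication, listed by role but with earlier results of these data known, were tested in the same fit. Of 69 tested, 4 rose and 4 fell (11.6%, against 13.9% of all tested genes), with a median of -0.01 on the log2 scale. Pold4 had no count in 5 libraries and was not tested. The 4 that rose were Top1, a topoisomerase ahead of the fork, Dnmt1, which copies DNA methylation onto new strands, Ticrr, which helps Cdc45 load, and E2f7, a repressor among the E2F factors. Top1 was 304, 268 and 308 CPM in the controls and 366, 426 and 354 CPM in the libraries labelled NFIAcKO (log2 fold change 0.38, adjusted p = 0.0168). Dnmt1 was 151, 126 and 182 CPM and 201, 209.7 and 196 CPM (0.41, adjusted p = 0.0259). Ticrr rose by 0.70 (adjusted p = 0.0397) and E2f7 by 0.51 (adjusted p = 0.0456; adjusted p = 0.0781 with the replicate number as a block). All 3 libraries labelled NFIAcKO were above the controls for each of these 4, which were picked because they were called. Of all 69, 7 were higher and 19 lower in all 3 libraries labelled NFIAcKO. Over all tested genes 17.3% were higher and 16.1% lower in this way.

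The 4 that fell were Pole4, Rbbp4, Dtymk and Orc6. Pole4, a small subunit of polymerase epsilon, had 52.0 ± 8.96 CPM in the controls and 36.0 ± 2.19 CPM in the libraries labelled NFIAcKO (mean ± SD, n = 3), a difference of -0.53 on the log2 scale (edgeR adjusted p = 0.0108). Rbbp4, a histone-binding subunit of CAF-1 and of other chromatin complexes, had 399 ± 53.5 and 293 ± 32.6 CPM (-0.45, adjusted p = 0.0160). Dtymk, thymidylate kinase, had a log2 difference of -0.40 (adjusted p = 0.0305), and Orc6, of the origin recognition complex, one of -0.34 (adjusted p = 0.0368). With the trend removed Pole4 (-0.31, adjusted p = 0.0441) and Rbbp4 (-0.57, adjusted p = 0.0235) kept their calls, E2f6 fell (-0.31, adjusted p = 0.0297), and the other 6 calls ended. With the block as well, Ticrr passed (adjusted p = 0.0471). Pole4 lost its call without control replicate 1 (0.0502) and NFIAcKO replicate 3 (0.0584), while Rbbp4 had 0.0582 without control replicate 1, 0.0841 without NFIAcKO replicate 1 and 0.0772 without NFIAcKO replicate 3. Top1 lost it without any 1 of control replicate 1 and the 3 libraries labelled NFIAcKO (0.05003 to 0.0861). Dnmt1, Ticrr, E2f7, Dtymk and Orc6 lost theirs in every fit that leaves out a library except that without control replicate 3.

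By role, the 5 listed genes that remove RNA primers and flaps (Dna2, Rnaseh1, Rnaseh2a, Rnaseh2b and Rnaseh2c) were each lower in all 3 libraries labelled NFIAcKO, as were 16.1% of all tested genes. None of the 5 was called (1 had an unadjusted p under 0.05). Their fold changes ran from -0.34 to -0.09 on the log2 scale. A further 10 genes were listed with the pre-replication complex, though not all are parts of it (Orc2 to Orc6, Mcm10, Gmnn, Mcmbp, Mcm8 and Mcm9). Of these Orc6 fell, as did 6.08% of all tested genes, and 9 did not pass. Among 13 genes of the E2F and Rb group, E2f7 rose, as did 7.86% of all tested genes. The activators E2f1 (0.21, adjusted p = 0.512), E2f2 (0.08, 0.825) and E2f3 (0.31, 0.102) gave no call. E2f8, the other repressor of that kind, was 5.58, 4.58 and 11.2 CPM in the controls and 10.3, 12.6 and 10.2 CPM in the libraries labelled NFIAcKO, with control replicate 3 inside the range of the latter (adjusted p = 0.257). Of the helper genes Gmnn, whose product holds Cdt1 back, differed by -0.37 (adjusted p = 0.0755) and Clspn, of the fork, by 0.70 (adjusted p = 0.126). With the replicate number as a block Clspn rose (0.78, adjusted p = 0.0312) and Rpa3, a subunit of the protein that coats single-stranded DNA, fell (-0.41, adjusted p = 0.0404, against 0.0754 without the block).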

How the data were processed

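RNA from 6 whole spinal cords was sequenced from stranded mRNA libraries, per the labels' protocols. STAR 2.6.1a, HTSeq, DESeq2 and the build mm10 appear, without roles, in the submitters' processing notes. The deposited files hold whole-number counts per gene symbol, not normalized. Which annotation and strand setting the authors counted with is not given in the sources used here. The 5 summary lines (16.9 to 19.4% of a file) did not enter library sizes or any test.

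Groups were compared in edgeR 4.0.16 (R 4.3.3) with TMM scaling, filterByExpr and a robust quasi-likelihood fit, and p-values were adjusted by Benjamini-Hochberg over 17711 genes, with a threshold of 0.05 and a biological coefficient of variation of 11.5%. The SE was obtained by dividing the log2 fold change by the root of its F value, and 95% intervals come from it. The test was tested on simulated data. Alternatives were DESeq2 1.42.0, limma-voom (limma 3.58.1), other scalings, no filter, blocks, and a length and GC trend removed by splines of 5 degrees of freedom (GENCODE M21, GRCm38, 98.8% of tested genes). Replicates of a group differed beyond sampling noise (chi-square per degree of freedom 11.9 to 50.2). Deviations from group means correlated across genes at 0.353, 0.397 and 0.193 for libraries with the same replicate number. For other pairs the values were -0.327 to 0.0888. The replicate numbers come from titles only, so the main fit had no block and the number was a block only in alternatives. The members and lists were chosen with earlier results of these data known. Libraries were given for called members and for the member with the smallest p in each role; other members with values, among them Mcm3, Pole, Rrm2 and Uhrf1, were chosen after their values were seen. Intervals cover the spread between these embryos only. Markers of dorsal root ganglia are not reported here.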

Additional observations from a re-analysis of the deposited data

How the results depend on the processing

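Over all tested genes, 1392 rose and 1076 fell in the libraries labelled NFIAcKO by edgeR. With the length and GC trend removed 676 rose and 686 fell, and 707 rose with the trend removed and a replicate block. Fits that leave out a library gave 282 to 2703 higher and 139 to 2466 lower. Upper quartile scaling moved the share of calls that were higher from 56.4% to 42.4%. Of the 35 members, 1 rose and 1 fell. The counts were 0 higher and 2 lower under upper quartile scaling, 5 and 3 with no filter, 2 and 3 in DESeq2, 0 and 0 with the trend removed, and 2 and 2 with the number in the file names as a block. The shares of all tested genes called were 14.1%, 10.2%, 25.2%, 7.69% and 17.6% in these 5 fits. With the replicate block and the trend removed 1 rose and 0 fell. Leaving out a library gave 0 to 16 higher and 0 to 3 lower, and the counts above 0 came from the fit without control replicate 3. A fit with the Xist level (libraries split into high and low) as a covariate, chosen after seeing the data, gave 1 higher and 3 lower. That fit called 15.7% of all tested genes. Of the other replication genes, 4 rose and 4 fell. With the trend removed 0 rose, with the block as well 1, and with the Xist level 2. DESeq2 and the file-name block each gave 8 lower. Leaving out a library gave 0 to 18 higher and 0 to 9 lower. The replicate block ended the call of E2f7 (adjusted p = 0.0781), added calls of Clspn (0.0312) and Rpa3 (0.0404) and changed no other call among the replication genes. E2f7 also lost its call under upper quartile scaling (0.0611) and limma-voom (0.0552). No value reported reversed its direction while called. The cause of these shifts was not tested, and fits that leave a library out also hold fewer libraries. With 3 embryos a group, changes of the size seen in most members could not be told from the spread between embryos.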

Other observations

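Genes that take cells out of the cycle gave no call. Of 4 listed (Cdkn1a, Cdkn1b, Cdkn1c and Btg2), 3 lay above 0 and 1 below. Cdkn1b, which encodes the inhibitor p27, was 129.7, 148 and 118 CPM in control replicates 1 to 3 and 107, 129 and 109 CPM in NFIAcKO replicates 1 to 3 (edgeR adjusted p = 0.187). Cdkn1c, which encodes p57, was 262, 275 and 327 CPM and 273, 368 and 298 CPM, highest in control replicate 3 and NFIAcKO replicate 2 within their groups (adjusted p = 0.521). Among genes of DNA methylation upkeep, Dnmt1 rose, while its partner Uhrf1 differed by 0.39 on the log2 scale with a wide interval (-0.30 to 1.08). Hells and Cdca7, which remodel the same chromatin, differed by 0.30 and 0.27 (adjusted p = 0.174 and 0.231).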
